A study of Mus musculus with 6 samples.

Results

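The genes described here are 10 RNA-binding proteins that control splicing in heart and muscle: *Matr3*, *Ptbp1*, *Ptbp2*, *Mbnl1*, *Mbnl2*, *Celf1*, *Rbfox2*, *Rbm24*, *Qk* and *Tardbp*. They were chosen by name, with *Matr3* included because its protein, matrin 3, is a known partner of the lncRNA *Charme*, and the rule for choosing them uses no measured value. All 10 were among the 19446 genes of the deposited table: 9 were found by symbol, and *Qk*, which the table lists as *Qki*, by its identifier. RNA-seq had been performed on cardiac fibroblasts (CFs) grown from explanted atrial tissue of C57BL/6J mice, with 5 weeks as the age in the sample titles. There were 3 wild-type (WT) libraries and 3 CharmeKO libraries. In CharmeKO mice a polyadenylation signal was inserted into the *Charme* locus, which ends its transcription early. Both groups shared the same culture (IMDM with 20% serum, fibronectin-coated plates) and the same poly(A) selection, and no treatment is named for either. The study's methods describe explants from the atria of several littermates, with an age range around the 5 weeks of the titles. They state that experiments used independent primary isolations, without saying which isolation gave which library. The comparison asks whether the mRNA levels of these regulators differ between CFs of WT and CharmeKO mice. The study found very little *pCharme*, an isoform of *Charme*, in freshly isolated CFs. It states that adult CFs do not express the lncRNA.

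Splicing regulators bind short sequence elements in the pre-mRNA and favour or repress the use of nearby exons. Several of them act in opposed or exchangeable pairs: in the heart and in skeletal muscle, rising MBNL and falling CELF activity accompanies the postnatal switch to adult exons, and PTBP1 is replaced by its paralogue PTBP2 as neurons differentiate. In fibroblasts, MBNL1 is known to stabilise transcripts that drive the change to myofibroblasts, and QK, also called Quaking, is known in smooth muscle cells and in circular RNA formation. Matrin 3 is an abundant nuclear matrix protein that binds RNA and works with PTBP1. The amount of mRNA measured here is not splicing activity, which depends on the protein, its isoforms and its place in the cell, and the table counts reads per gene and holds no exon usage.

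Between 38330019 and 46797446 reads were assigned to genes per library, and the 10 regulators took 0.133% to 0.170% of them. The entry taken for *Charme*, an unannotated feature named CUFF405, was covered by 5, 15 and 11 reads in the WT libraries and by 0, 6 and 3 reads in the CharmeKO libraries, which is too few for a firm check of the genotype. All 10 fibroblast markers were present, with a summed level of 25409 to 53797 CPM (reads scaled to a common library total) in WT and 33551 to 44383 in CharmeKO. Of 12 cardiomyocyte markers, 8 had no entry in the table, among them *Myh6*, *Myh7* and *Actc1*, and the other 4 summed to 3.43 to 13.9 CPM in WT and 3.95 to 18.5 CPM in CharmeKO. Libraries with the same replicate number were taken as pairs. Their deviations from the group means correlated with r = 0.762, 0.514 and 0.217 for numbers 1, 2 and 3. WT 2 and CharmeKO 3 had r = 0.222, so these values do not mark out the pair numbered 3. In bulk RNA, fewer cells of a type and less RNA per cell cannot be told apart.

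None of the 10 regulators passed the test for a difference between CharmeKO and WT. With limma on log2(normalised reads + 1) and Benjamini-Hochberg adjustment, 0.0% of the 15948 genes tested were called, and 0 regulators. At an unadjusted limma p under 0.05, 0.897% of all genes and 0 regulators were called. Groups that did not overlap were seen in 4.11% of all genes and in 0 regulators. Within the pairs, 7 regulators moved the same way all 3 times, against 30.4% of all genes. Of these, *Ptbp2*, *Mbnl1*, *Mbnl2*, *Celf1* and *Rbfox2* (5 genes) had the lower value in the CharmeKO library of every pair, against 14.0% of all genes, and *Ptbp1* and *Tardbp* (2 genes) the higher, against 16.4%. These counts depend on the deposited scaling. In CPM, CharmeKO 2 was above WT 2 for *Celf1* (115 against 110) and *Mbnl2* (226 against 224). With the replicate number as a block, 2 regulators, *Mbnl1* and *Ptbp2*, had an unadjusted limma p under 0.05, both lower in CharmeKO, against 3.23% of all genes in that direction and 5.37% in either, and neither was called after adjustment (limma adjusted p = 0.7997 for each). On the recovered reads, edgeR called 0 regulators at an adjusted or unadjusted p under 0.05 (0.0% and 0.991% of all genes), and so did DESeq2 (0.0502% and 1.79%). With the block, *Mbnl1* and *Ptbp2* were again the 2 regulators at an unadjusted p under 0.05, in edgeR (4.82% of all genes) and in DESeq2 (5.59%, with 0.401% and 0 regulators after adjustment). The median log2 fold change of the 10 was -0.075 with 6 below 0, against 0.0022 with 49.6% below 0 over all genes tested.

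**Figure D1:**
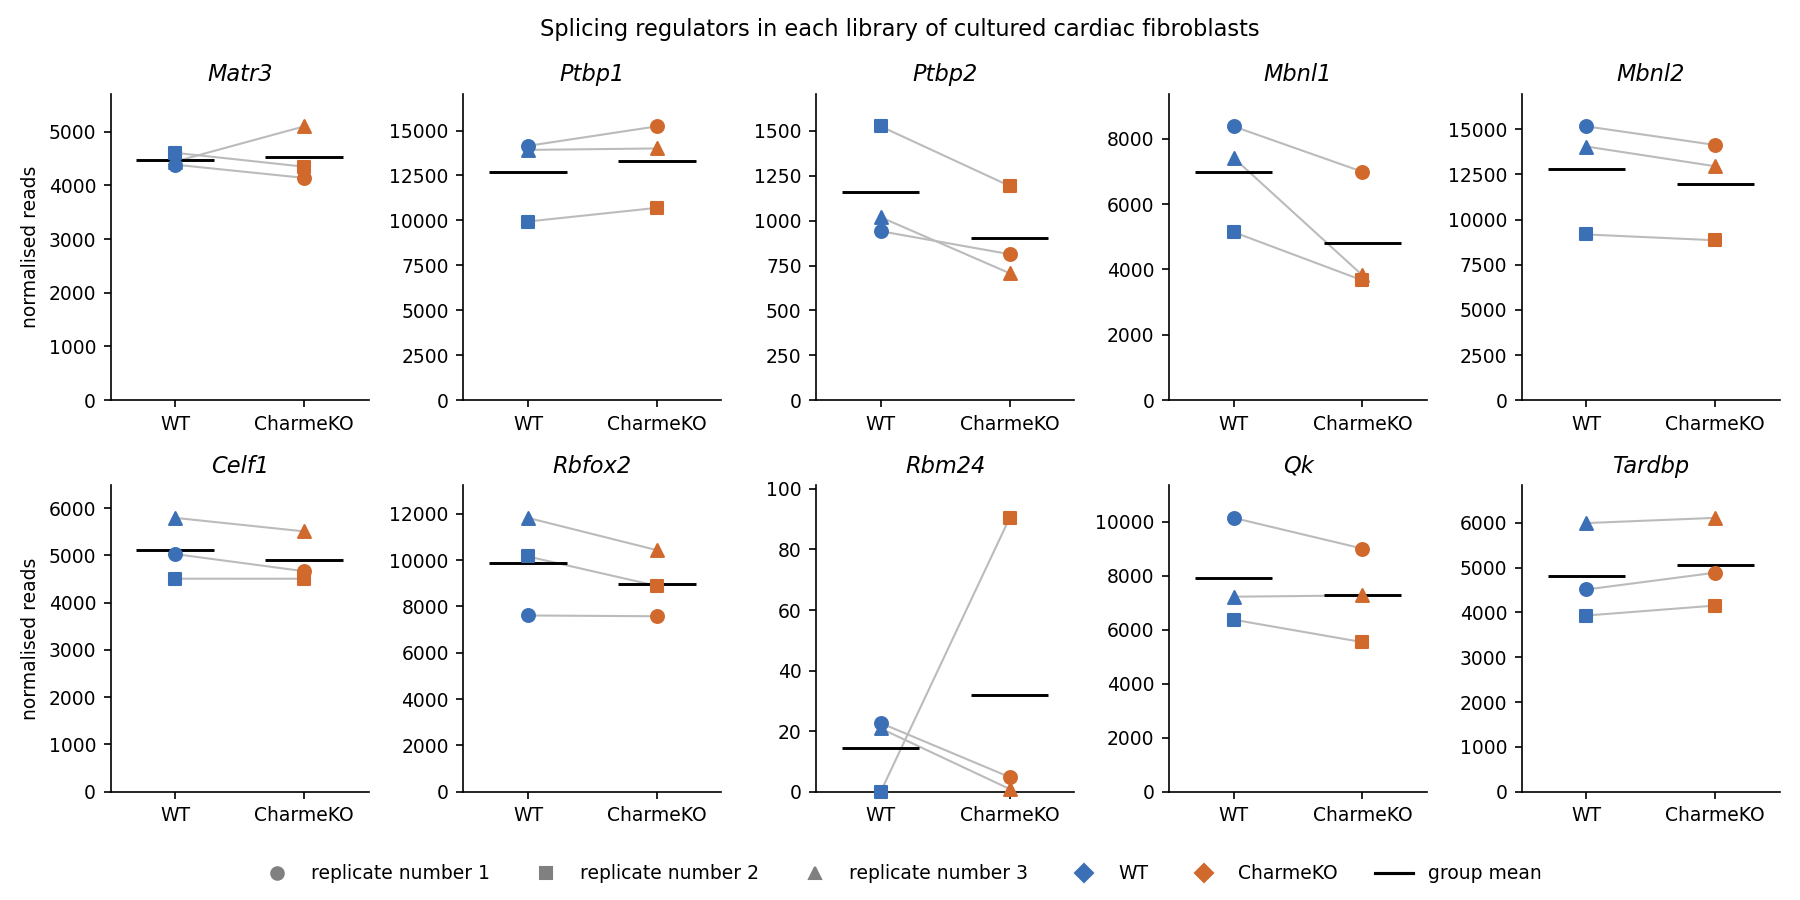
Normalised reads per library of the 10 regulators, 1 panel per gene, with WT and CharmeKO on the horizontal axis, the replicate number as the symbol, lines joining equal numbers and bars for the mean of 3 libraries. The groups overlap in all 10 panels, and the CharmeKO library lies below the WT library of the same number in all 3 pairs for *Mbnl1* and *Ptbp2*.

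**Figure D2:**
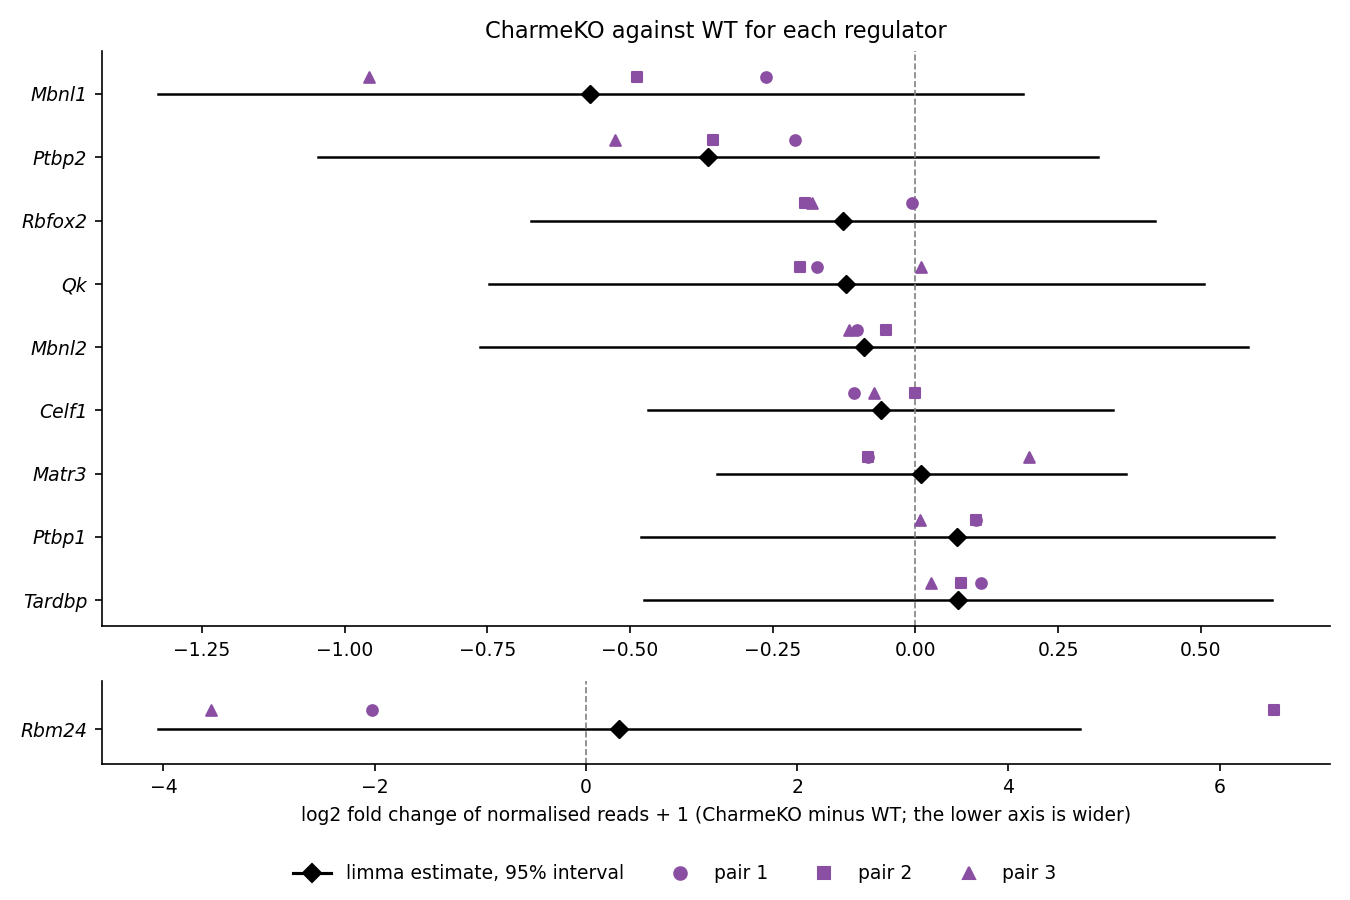
The log2 fold change of each regulator, CharmeKO against WT, with its 95% interval from limma on log2(normalised reads + 1), and the difference within each replicate number as symbols. Each interval, from the fit of genotype only, holds 0, and that of *Rbm24* runs from -4.05 to 4.68. With the replicate number as a block (not drawn), the intervals were -0.99 to -0.14 for *Mbnl1* and -0.67 to -0.062 for *Ptbp2*. Those of the other regulators held 0, and no regulator was called after adjustment.

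*Matr3*, on chromosome 18, was the steadiest of the 10. It had 4388, 4609 and 4446 normalised reads in WT 1, 2 and 3 and 4142, 4350 and 5102 in CharmeKO 1, 2 and 3. The WT libraries lay close together, and the CharmeKO libraries held both the lowest and the highest value. The means were 4481 ± 115 (SD, n = 3) in WT and 4531 ± 505 (SD, n = 3) in CharmeKO, and the log2 fold change was 0.011 (SE 0.15, limma adjusted p = 0.9999). The 95% interval of the fold, CharmeKO over WT, was 0.786 to 1.29 in the fit of genotype only (log2 -0.35 to 0.37). With the replicate number as a block, the interval of *Matr3* was narrower, at -0.26 to 0.28 on the log2 scale (SE 0.10). Each interval included no change. The smallest change of *Matr3* mRNA that these libraries could detect was not tested. The coefficient of variation was 2.56% in WT, where counting alone gives up to 1.57%, and 11.1% in CharmeKO. The SD of its log2 values over the 6 libraries, 0.102, lay at percentile 2.29 of the genes tested.

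The genes that ran most like *Matr3* were picked by correlation, so their peak in CharmeKO 3 follows largely from that choice. Over the 6 libraries, the genes tested with the highest Pearson r to *Matr3* on the log2 scale were *Frs2* (r = 0.991, Spearman's rho = 0.829), an adaptor of fibroblast growth factor receptors, *Rbbp6* (r = 0.986, rho = 1.0), a ubiquitin ligase linked to mRNA 3' end processing, and *Gprin3* (r = 0.985, rho = 1.0). *Rbbp6* had 3231, 3313 and 3288 normalised reads in WT 1, 2 and 3 and 2981, 3208 and 3861 in CharmeKO 1, 2 and 3, the same order of libraries as *Matr3*. *Gprin3* ran from 8.65 normalised reads in CharmeKO 1 to 444 in CharmeKO 3, a far wider range than the 4142 to 5102 of *Matr3*. These correlations rest on 6 libraries that share their normalisation and, within pairs, their replicate number. In the GENCODE M21 annotation a gene on the same strand, *Gm28285*, shares 1754 of the 10158 exonic bases of *Matr3*, and reads in such shared bases may be missing from the count.

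The polypyrimidine tract binding proteins were measured at very different levels, with a mean over the 6 libraries of 66.0 RPKM (reads relative to exon length in kb and to the library total) for *Ptbp1* and 2.73 RPKM for *Ptbp2*. The promoters of both genes, taken as the 120 bases before the RefSeq start, are shown because the paralogues differ there as well as in level. Capitals mark the GC box with the letters GGGCGG, the CCAAT box with its own letters, the TATA box as TATAAA and the E-box as CANNTG, on either strand, with overlapping matches joined. Sequences and positions are from RefSeq on GRCm38.p6, each written 5′ to 3′ on the strand of the gene.
Ptbp1, chr10:79854312-79854431, plus strand: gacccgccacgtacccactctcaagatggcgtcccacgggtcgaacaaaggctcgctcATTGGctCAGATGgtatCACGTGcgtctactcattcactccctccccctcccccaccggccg
Ptbp2, chr3:119783389-119783508, minus strand: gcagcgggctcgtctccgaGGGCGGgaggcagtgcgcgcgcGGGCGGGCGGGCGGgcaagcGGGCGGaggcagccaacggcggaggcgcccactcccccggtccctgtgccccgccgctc
The *Ptbp2* window held 5 GC boxes and the *Ptbp1* window 0, while the *Ptbp1* window held 1 CCAAT box and 2 E-boxes. Of all 32851 promoter windows of the table, 26.5% held a GC box, 21.3% a CCAAT box, 6.34% a TATA box and 40.2% an E-box. A match describes the letters and is not evidence of binding.

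*Ptbp1* (GRCm38, chr10:79854427-79864771, plus strand) encodes the widely expressed repressor of exon inclusion. It had 14149, 9940 and 13924 normalised reads in WT 1, 2 and 3 and 15234, 10699 and 14005 in CharmeKO 1, 2 and 3. In both groups the library numbered 2 was the lowest, and the groups overlapped. The means were 12671 ± 2367 in WT and 13313 ± 2345 in CharmeKO (SD, n = 3 each), a log2 fold change of 0.074 (SE 0.23, 95% interval -0.48 to 0.63, limma adjusted p = 0.9999). The summed level of 24 cell cycle genes was lowest in the same libraries, at 403 CPM in WT 2 and 398 CPM in CharmeKO 2 against 823 to 998 CPM in the other 4, and its part in the *Ptbp1* level was not tested. A near-identical copy of *Ptbp1*, *Gm4900*, and 3 genes on the opposite strand are annotated, and counting used the strand.

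*Ptbp2* (chr3:119718742-119784466, minus strand), the paralogue typical of neurons, was highest in the libraries where *Ptbp1* was lowest. It had 941, 1526 and 1019 normalised reads in WT 1, 2 and 3 and 813, 1194 and 707 in CharmeKO 1, 2 and 3. The library numbered 2 was the highest in each group, and the CharmeKO library was the lower in each pair. The log2 fold change was -0.36 (SE 0.29, 95% interval -1.05 to 0.32, limma adjusted p = 0.9999), and the differences within pairs were -0.21, -0.35 and -0.53. The unadjusted p was 0.245 with limma and 0.0278 with the block in limma. Leaving out WT 2 gave a log2 fold change of -0.15, leaving out CharmeKO 3 gave -0.20, and leaving out CharmeKO 2 gave -0.58. Neuronal and glial markers summed to 70.9 to 122 CPM in WT and 33.5 to 183 CPM in CharmeKO, mostly from *Tubb3*, a tubulin also made outside neurons (67.4 to 92.0 CPM in WT, 30.7 to 181 CPM in CharmeKO). There was no entry for 3 of the 11 markers, *Snap25*, *Rbfox3* and *Elavl3*, and the part of neuronal cells in the *Ptbp2* level was not tested.

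The ratio of both paralogues, which does not depend on library scaling, was taken on the log2 scale within each library, uncorrected for length. *Ptbp1* exceeded *Ptbp2* by 3.91, 2.70 and 3.77 in WT 1, 2 and 3 and by 4.23, 3.16 and 4.31 in CharmeKO 1, 2 and 3. The groups overlapped, with the libraries numbered 2 lowest in each. The means were 3.46 ± 0.66 in WT and 3.90 ± 0.64 in CharmeKO (SD, n = 3 each). CharmeKO was higher by 0.44 on average, within the spread of the libraries (p = 0.5, exact permutation test, two-sided). Within pairs it was 0.32, 0.46 and 0.54 (exact sign-flip test, p = 0.25, the smallest that 3 pairs can give). The difference ran from 0.059 without WT 2 to 0.81 without CharmeKO 2, and was 0.66 without WT 1, 0.27 without CharmeKO 1 and 0.23 without CharmeKO 3.

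**Figure D3:**
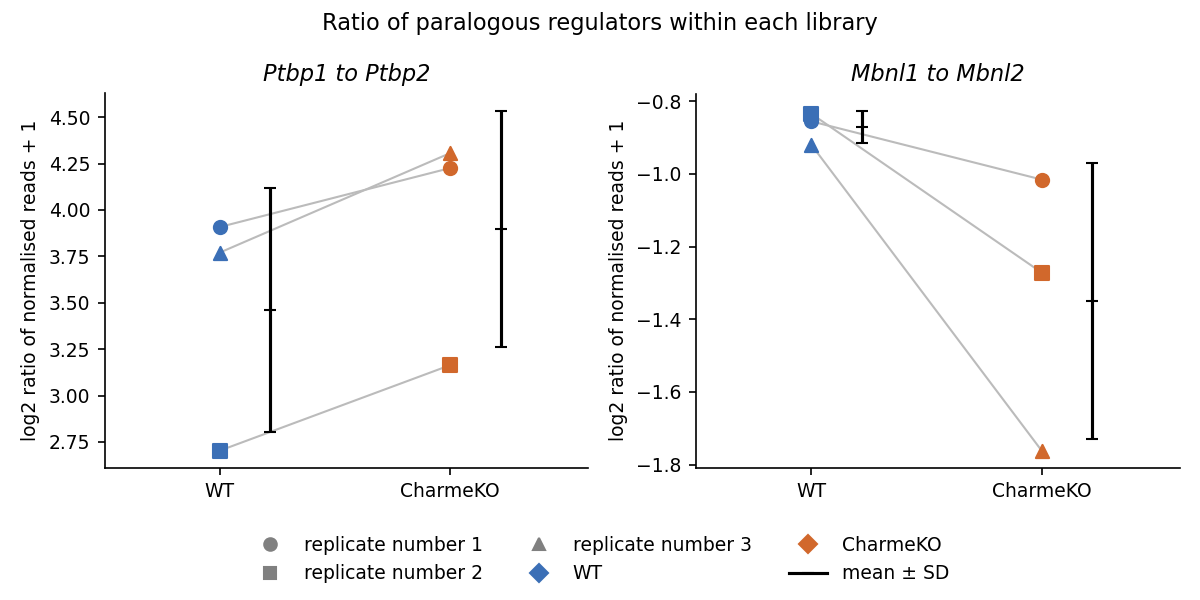
The log2 ratio of normalised reads + 1 of *Ptbp1* to *Ptbp2* (left) and of *Mbnl1* to *Mbnl2* (right) in each library, by group, with lines joining equal replicate numbers and bars for the mean ± SD of 3 libraries. The *Ptbp1* to *Ptbp2* ratio overlaps between the groups, and the *Mbnl1* to *Mbnl2* ratio does not.

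Muscleblind-like proteins promote adult splicing patterns in muscle. *Mbnl1* has a pair of RefSeq starts, and the windows before them are shown with that of *Mbnl2* because they differ in base composition. The capitals and the source are as above.
Mbnl1 first start, chr3:60472710-60472829, plus strand: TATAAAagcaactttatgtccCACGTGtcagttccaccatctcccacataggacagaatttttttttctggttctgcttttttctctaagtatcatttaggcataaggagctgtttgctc
Mbnl1 second start, chr3:60501059-60501178, plus strand: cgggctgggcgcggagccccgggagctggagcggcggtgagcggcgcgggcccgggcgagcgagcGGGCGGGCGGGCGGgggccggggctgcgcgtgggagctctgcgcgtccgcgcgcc
Mbnl2, chr14:120275549-120275668, plus strand: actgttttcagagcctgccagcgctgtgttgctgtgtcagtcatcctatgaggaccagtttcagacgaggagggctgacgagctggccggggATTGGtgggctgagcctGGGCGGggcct
The window of the first *Mbnl1* start had a GC content of 38.3% and held 1 TATA box and 1 E-box, while that of the second had 87.5% and held 3 overlapping GC boxes. The *Mbnl2* window had 61.7% and held 1 CCAAT box and 1 GC box. The table counts per gene, so reads from either *Mbnl1* start are summed.

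*Mbnl1* (chr3:60472830-60629750, plus strand) had the largest negative log2 fold change of the 10. It had 8381, 5145 and 7422 normalised reads in WT 1, 2 and 3 and 6990, 3667 and 3820 in CharmeKO 1, 2 and 3. CharmeKO 2 and 3 lay below all WT libraries, and CharmeKO 1 lay between WT 2 and WT 3, so the groups overlapped. The means were 6983 ± 1662 in WT and 4826 ± 1876 in CharmeKO (SD, n = 3 each), a log2 fold change of -0.57 (SE 0.32, 95% interval -1.33 to 0.19, limma adjusted p = 0.9999). On the linear scale the fold was 0.674, with a 95% interval of 0.398 to 1.14. Within pairs the differences were -0.26, -0.49 and -0.96. The unadjusted p was 0.118 with limma and 0.0194 with the block in limma. Leaving out CharmeKO 1 gave a log2 fold change of -0.87, and leaving out CharmeKO 3 gave -0.40.

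The summed level of 14 smooth muscle and pericyte markers was also lower in the CharmeKO library of every pair. It was 4025, 1419 and 6398 CPM in WT 1, 2 and 3 and 3701, 850 and 1437 CPM in CharmeKO 1, 2 and 3. The gap was widest in the pair numbered 3, as for *Mbnl1*, while among the WT libraries the sum was highest in WT 3 and *Mbnl1* in WT 1. All 14 markers had an entry in the table, and most of the sum came from few of them. *Acta2*, smooth muscle actin, had 2279, 445 and 3685 CPM in WT 1, 2 and 3 and 2110, 138 and 497 CPM in CharmeKO 1, 2 and 3, whereas *Pdgfrb*, a receptor of pericytes and fibroblasts, was higher in CharmeKO 3 (668 CPM) than in WT 3 (409 CPM). Their part in the *Mbnl1* result was not tested.

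*Mbnl2* (chr14:120275669-120431697, plus strand) had 15163, 9177 and 14047 normalised reads in WT 1, 2 and 3 and 14131, 8854 and 12953 in CharmeKO 1, 2 and 3. The libraries numbered 2 stood low in both groups, and the CharmeKO library was slightly lower in each pair. The log2 fold change was -0.090 (SE 0.28, 95% interval -0.76 to 0.58, limma adjusted p = 0.9999). The spread between replicate numbers was much larger than the difference within any pair, which was at most 0.12 in size.

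The log2 ratio of *Mbnl1* to *Mbnl2* was -0.86, -0.83 and -0.92 in WT 1, 2 and 3 and -1.02, -1.27 and -1.76 in CharmeKO 1, 2 and 3. The groups did not overlap: every CharmeKO library was below every WT library. The WT libraries lay closely together (-0.87 ± 0.045, SD, n = 3), and the CharmeKO libraries spread widely (-1.35 ± 0.38, SD, n = 3). The difference of -0.48 gave p = 0.1 in the two-sided exact permutation test, the smallest value this test can give with 3 against 3 libraries, so it cannot reach 0.05. Within pairs it was -0.16, -0.44 and -0.84 (exact sign-flip test, p = 0.25, the smallest that 3 pairs can give). How often the ratios of other gene pairs do not overlap was not counted. Leaving out CharmeKO 3 brought it to -0.27.

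The CELF, RBFOX, Quaking and TDP-43 genes differed less between the groups than between replicate numbers. *Celf1* (chr2:90940382-91019497, plus strand) encodes a protein that favours fetal exons in heart and destabilises GU-rich mRNAs. It had 5029, 4508 and 5796 normalised reads in WT 1, 2 and 3 and 4667, 4508 and 5510 in CharmeKO 1, 2 and 3. The libraries numbered 2 differed by -6.6e-05 on the log2 scale and were the lowest of each group. CharmeKO differed from WT by a log2 fold change of -0.060 (SE 0.17, 95% interval -0.47 to 0.35, limma adjusted p = 0.9999), the narrowest interval after that of *Matr3*.

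*Rbfox2* (chr15:77078990-77307004, minus strand) encodes the RBFOX protein present in many non-neuronal tissues, heart included. It had 7606, 10154 and 11820 normalised reads in WT 1, 2 and 3 and 7572, 8883 and 10426 in CharmeKO 1, 2 and 3. Both groups ran in the same order of replicate numbers, with number 1 the lowest and number 3 the highest. CharmeKO differed from WT by a log2 fold change of -0.13 (SE 0.23, 95% interval -0.67 to 0.42, limma adjusted p = 0.9999), and the pair numbered 1 differed by -0.0063.

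*Qk* (chr17:10202601-10319854, minus strand) encodes Quaking, a STAR-family RNA-binding protein of the cytoplasm and nucleus. It had 10151, 6376 and 7228 normalised reads in WT 1, 2 and 3 and 9012, 5543 and 7277 in CharmeKO 1, 2 and 3. The libraries numbered 1 were the highest and those numbered 2 the lowest, in both groups. Its log2 fold change was -0.12 (SE 0.26, 95% interval -0.75 to 0.51, limma adjusted p = 0.9999), with pair differences of -0.17, -0.20 and 0.0098.

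*Tardbp* (chr4:148612382-148627019, minus strand) encodes TDP-43, which represses cryptic exons. It had 4513, 3932 and 5996 normalised reads in WT 1, 2 and 3 and 4889, 4155 and 6113 in CharmeKO 1, 2 and 3. CharmeKO was slightly above WT in each pair, by 0.12, 0.079 and 0.028 on the log2 scale, and the order of replicate numbers was the same in both groups. Over the pairs this made a log2 fold change of 0.074 (SE 0.23, 95% interval -0.48 to 0.62, limma adjusted p = 0.9999). *Masp2* overlaps *Tardbp* on the opposite strand and had at most 83.5 normalised reads in a library.

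*Rbm24* (chr13:46418434-46431095, plus strand), a regulator of splicing typical of cardiac and skeletal muscle, was close to the limit of detection. Its promoter window is shown because it held none of the 4 motifs, alone among the 9 windows found for 8 of the 10 regulators, of which 6 held a GC box. The share of all promoter windows with none of the 4 motifs was not counted, so this cannot be called unusual.
Rbm24, chr13:46418180-46418299, plus strand: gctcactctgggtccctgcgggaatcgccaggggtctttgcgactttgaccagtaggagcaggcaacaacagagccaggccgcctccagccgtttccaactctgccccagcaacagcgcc
The *Rbm24* read counts of WT 1, 2 and 3 were 23, 0 and 19, and those of CharmeKO 1, 2 and 3 were 5, 92 and 1. A count of 0 allows up to 3 reads, counting error alone. CharmeKO 2 held more reads than the other 5 libraries together, and WT 2, its pair, held 0. Its log2 fold change was 0.31 (SE 1.82, 95% interval -4.05 to 4.68, limma adjusted p = 0.9999), and the differences within pairs were -2.03, 6.51 and -3.55, so no direction can be given. CharmeKO 2 was not the library with the most cardiomyocyte marker reads, which was CharmeKO 1 at 18.5 CPM against 6.45 CPM in CharmeKO 2, and skeletal muscle markers stood at 2.13 CPM in CharmeKO 2 and 24.8 CPM in WT 3. The part of muscle cells in the *Rbm24* reads was not tested.

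Levels between genes were compared as RPKM, with the annotated exon length of each gene. On this scale the mean over the 6 libraries was 66.0 for *Ptbp1*, 28.0 for *Rbfox2*, 24.8 for *Mbnl2*, 15.3 for *Tardbp*, 14.3 for *Celf1*, 12.8 for *Qk*, 10.7 for *Matr3*, 7.56 for *Mbnl1*, 2.73 for *Ptbp2* and 0.166 for *Rbm24*. *Ptbp1* was above *Rbfox2*, *Mbnl1* above *Ptbp2* and *Ptbp2* above *Rbm24* without any overlap of their ranges over the libraries. The other 6 neighbours in this order had overlapping ranges, and *Tardbp* was above *Celf1* in 3 of 6 libraries. *Mbnl2* stood above *Tardbp* in 6 of 6 libraries although their ranges over the libraries overlapped. The exon length joins all annotated isoforms, so a gene with long alternative ends, such as *Mbnl1* with 18717 bases, is placed lower than its main transcript would be.

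**Figure D4:**
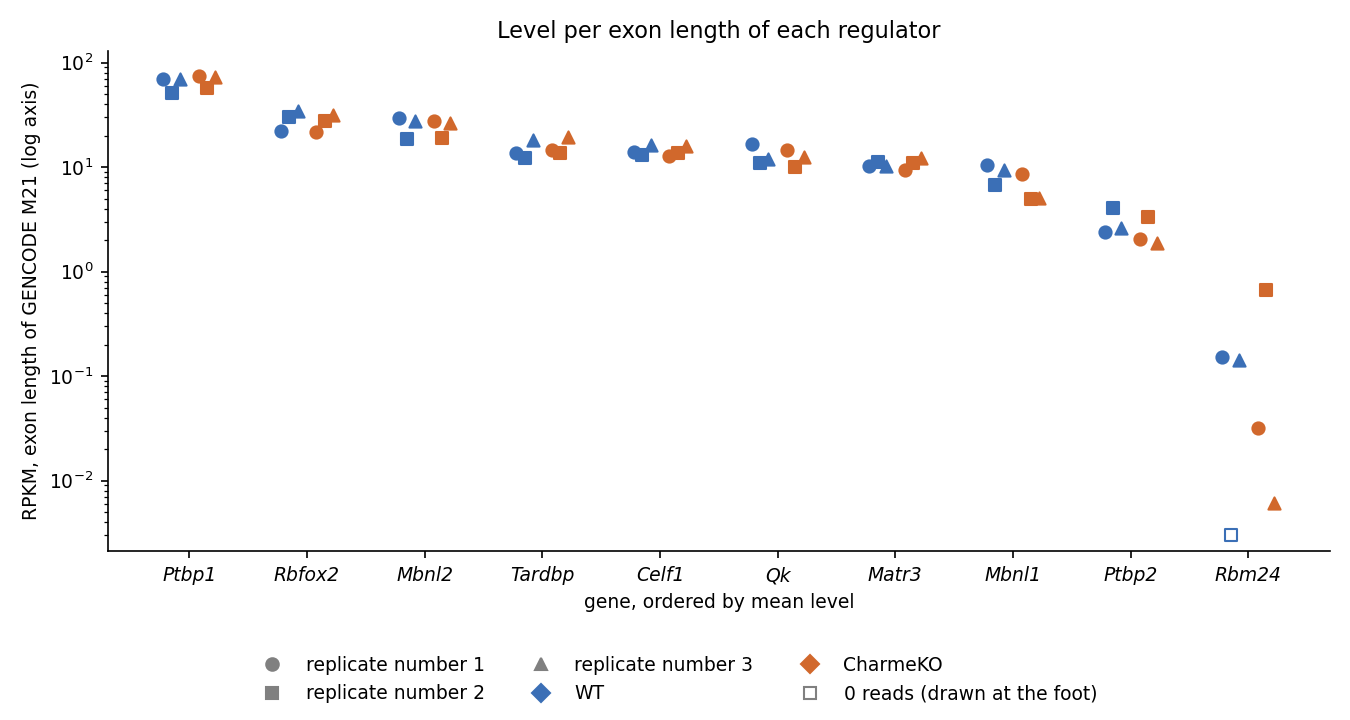
Level of each regulator in each library, in RPKM on a log axis, with genes ordered by their mean, WT in blue, CharmeKO in orange and the replicate number as the symbol. *Ptbp1* is highest in all 6 libraries, *Rbm24* is lowest in all 6, and the WT library with 0 *Rbm24* reads is drawn as an open symbol at the foot.

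Most of the variation of these genes followed the replicate number. Of each gene's variance over the 6 libraries, a median of 91.3% fell between replicate numbers and 3.46% between genotypes for the 10 regulators, against 73.8% and 5.91% for all genes tested. *Mbnl1*, with 37.5% between genotypes and 52.8% between replicate numbers, and *Ptbp2*, with 25.4% and 71.4%, had the highest genotype shares. The exceptions were *Matr3* and *Rbm24*. *Matr3* had 0.321% between genotypes, 49.0% between replicate numbers and 50.6% left over. *Rbm24* had 0.486%, 2.61% and 96.9%. The median SD of the log2 values was 0.293 for the 10 regulators and 0.417 for all genes. Over the 6 libraries *Ptbp1* and *Mbnl2* ran together (r = 0.95), as did *Celf1* and *Tardbp* (r = 0.913), while *Ptbp1* and *Ptbp2* ran opposite (r = -0.88). These r describe 6 libraries in 3 pairs that share their normalisation.

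The other splicing factors were read from lists of 9 relatives of the 10 regulators, 21 further alternative splicing regulators, 13 SR proteins, 23 hnRNPs, 15 nuclear matrix, paraspeckle and related proteins, and 45 core spliceosome proteins. In all 6 lists, 0 genes passed the adjusted threshold and 0 had an unadjusted limma p under 0.05, against 0.897% of all genes. The relatives had a median log2 fold change of -0.12, with 7 of 9 below 0, against 0.0022 over all genes, and this median ran from -0.33 without CharmeKO 3 to 0.0096 without WT 2. Median values were 0.0018 for the further regulators, 0.12 for SR proteins, 0.086 for hnRNPs, 0.036 for nuclear matrix proteins and 0.087 for the core spliceosome, which recognises splice sites and joins exons. Single libraries moved these too: without CharmeKO 3 the median was -0.012 for SR proteins, -0.0058 for hnRNPs, 0.014 for nuclear matrix proteins and -0.057 for the further regulators, which stood at -0.092 without WT 1 and 0.12 without WT 3. The core spliceosome median ran from 0.028 without CharmeKO 1 to 0.16 without WT 1. The CharmeKO library was the higher in all 3 pairs for 19 of 45 core spliceosome genes, 11 of 23 hnRNPs, 5 of 15 nuclear matrix proteins, 3 of 13 SR proteins, 2 of 21 further regulators and 1 of 9 relatives, and for 16.4% of all genes. It was the lower in all 3 pairs for 3 of 45 core spliceosome genes, 0 of 23 hnRNPs and 1 of 15 nuclear matrix proteins. The same held for 2 of 13 SR proteins, 1 of 21 further regulators and 3 of 9 relatives, and for 14.0% of all genes. These counts, too, use the deposited scaling.

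**Figure D5:**
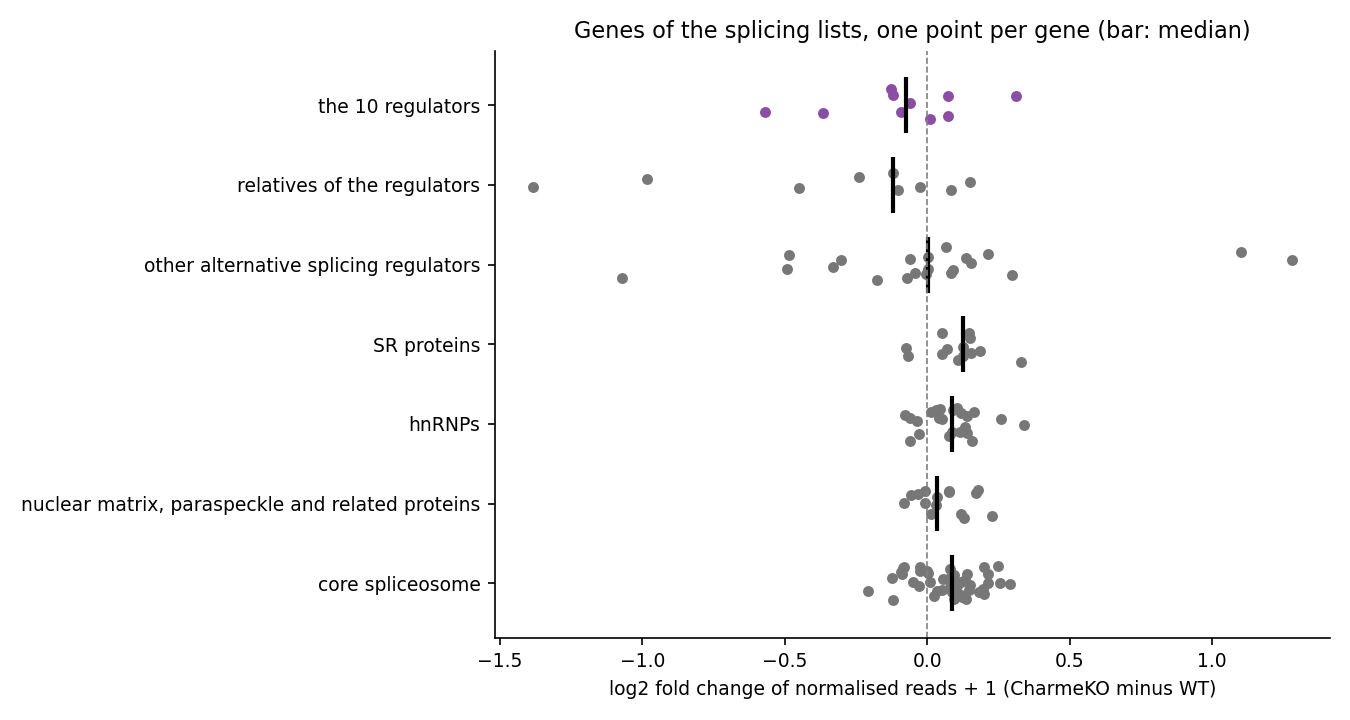
The log2 fold change, CharmeKO against WT, of each gene in the 6 lists of splicing factors and of the 10 regulators, with the median of each list as a bar and a dashed line at 0. The medians lie between -0.12 and 0.12.

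The lowest and highest genes of the lists were read out. Among the relatives these were *Rbm20*, a regulator of titin splicing in heart, at -1.38 (SE 0.89) and *Celf4* at 0.15 (SE 0.46). *Rbm20* had 77.8, 34.2 and 35.2 normalised reads in WT 1, 2 and 3 and 64.4, 9.83 and 6.96 in CharmeKO 1, 2 and 3, a low level at which the CharmeKO library was below WT in every pair and the groups overlapped. Among the further regulators they were *Nova1* at -1.07 (SE 0.82) and *Srrm4* at 1.28 (SE 0.68), both neuronal splicing factors, and *Srrm4* was highest in CharmeKO 2, at 409 normalised reads, beside 76.0 and 178 in CharmeKO 1 and 3. In the more abundant classes the extremes were smaller: *Pcbp2* at -0.077 (SE 0.18) and *Hnrnph3* at 0.34 (SE 0.49) among hnRNPs, and *Sfpq*, the lowest of the nuclear matrix list, at -0.082 (SE 0.23). SR proteins ran from *Srsf11* at -0.074 (SE 0.19) to *Srsf12* at 0.33 (SE 0.81), and core spliceosome proteins from *Prpf4* at -0.21 (SE 0.20) to *Snrpg* at 0.29 (SE 0.20).

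With the replicate block, 5 of the 126 listed genes had an unadjusted limma p under 0.05, a smaller share than the 5.37% of all genes. None passed after adjustment (limma adjusted p = 0.7997 for each). *Ptbp3*, *Mbnl3* and *Rbm20* were lower in CharmeKO and *Srrm3* and *Snrnp70* higher, and apart from *Rbm20* these were named after their values were seen. *Ptbp3*, a further PTB paralogue, had 4280, 3003 and 3033 normalised reads in WT 1, 2 and 3 and 3575, 1744 and 2461 in CharmeKO 1, 2 and 3, and its log2 fold change was -0.45 (SE 0.30). *Mbnl3* had 73.9, 667 and 153 normalised reads in WT 1, 2 and 3 and 27.9, 296 and 115 in CharmeKO 1, 2 and 3, and its log2 fold change was -0.98 (SE 1.09). In both genes the CharmeKO library was below WT in all 3 pairs, which choosing genes by the block p favours, and the groups overlapped. The groups did not overlap for *Snrpg* and *Dhx16* of the core spliceosome, which were higher in CharmeKO by 0.29 and 0.13. These were 2 of the 126 listed genes, a smaller share than the 4.11% of all genes.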

How the data were processed

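Cultured CFs were profiled by poly(A) RNA-seq in 3 WT and 3 CharmeKO libraries, grouped by sample title. Per the labels and the study's methods, the authors used STAR for alignment and for strand-specific gene counting, and DESeq2 for normalisation. The deposited values are a normalised signal: each gene's read count over the size factor of its library. Tool versions are not given in the sources used here. The study's methods name Ensembl release 87, an annotation of GRCm38, while the processing notes name GRCm39. Positions given here are GENCODE M21 on GRCm38 and were used for annotation and exon length only. STAR counts reads that map to 1 place and 1 gene, so reads shared with near-identical or overlapping genes are lost.

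All 100% of the values were whole multiples of 1 read, within 1e-06, so reads were recovered, 38330019 to 46797446 per library. Intervals and floors cover counting error only, since reads carry no molecular identifiers. The 15948 genes that reached 10 reads in 2 or more libraries, all 10 regulators included, were tested by limma 3.58.1 on log2(value + 1) with eBayes and a mean-variance trend, genotype being the sole term, two-sided, adjusted by Benjamini-Hochberg with a threshold of 0.05. Fold changes on this scale understate the change of genes with few reads. Ratios were tested by exact permutation over the 20 splits of 6 libraries. Alternatives were edgeR 4.0.16 and DESeq2 1.42.0 on the recovered reads, other pseudocounts, filters and scalings, a replicate block, and leaving out each library. Deviations from group means of same-numbered libraries were correlated across genes with r = 0.762, 0.514 and 0.217, and of differently numbered libraries with r = -0.643 to 0.222. The labels do not say what equal numbers share, and as all 3 values exceeded 0.1 they were taken as pairs. Fits were tested on simulated data in R 4.3.3. Plots used Python 3.11.15 and matplotlib 3.10.9, and similar genes were sought with blastn 2.17.0.

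The regulators and gene lists were chosen with earlier results of these data known. Named were the 10 regulators, the 3 genes most correlated with *Matr3*, the lowest and highest gene of each list, the *Charme* entry and any listed gene past the adjusted threshold, except 1 gene that is not reported here. Marker lists covered fibroblasts, cardiomyocytes, skeletal muscle, neurons and glia, smooth muscle and pericytes, endothelium (64.1 to 95.1 CPM in WT, 31.4 to 149 CPM in CharmeKO), haematopoietic cells (46.4 to 198 CPM, 25.4 to 423 CPM), mesothelium (75.5 to 484 CPM, 69.4 to 508 CPM) and the cell cycle. No promoter window was matched for *Rbfox2*, and chromosome 18, which holds *Matr3*, was left out of the promoter search. Native CFs were not analysed here.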

Additional observations from a re-analysis of the deposited data

How the results depend on the processing

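No regulator passed an adjusted threshold under any alternative run. Over all genes the number past it was 0 with limma, 8 in DESeq2 (Wald test) and 64 when DESeq2 had the replicate block. At an unadjusted p under 0.05, 2 regulators (*Mbnl1* and *Ptbp2*) were called by limma, edgeR and DESeq2 alike when the replicate block was added (2 each), and leaving out single libraries gave 0 to 1 (*Mbnl1*, without CharmeKO 1). The run without CharmeKO 1 called 458 of the 15666 genes it tested, against 143 of 15948 with all libraries. It dropped the CharmeKO library with the highest *Mbnl1* value. Among the 10 regulators the replicate block changed no other call. *Mbnl1* and *Ptbp2* kept their direction under every alternative, with -0.87 to -0.40 and -0.58 to -0.15 when a library was left out. The other 8 did not: leaving out single libraries gave -0.078 to 0.072 for *Matr3*, -0.092 to 0.22 for *Ptbp1*, -0.31 to 0.11 for *Mbnl2*, -0.15 to 0.034 for *Celf1*, -0.30 to 0.016 for *Rbfox2*, -0.29 to 0.072 for *Qk*, -0.072 to 0.24 for *Tardbp* and -1.28 to 1.52 for *Rbm24*. *Rbm24* also turned to -0.65 in edgeR and -1.46 in DESeq2 with the replicate block, and had no value under the filter of 1 CPM in 3 libraries. The cause of these shifts was not tested. *Rbm24* had at most 92 reads in a library, and the other 9 at least 813.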
